A study of Mus musculus with 10 samples.

Results

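The nuclear genes for the subunits of the 4 respiratory chain complexes and of ATP synthase (complex V) were examined in gastrocnemius muscle of mice with and without desmin. Members were the protein-coding genes whose symbols begin with Nduf (assembly factors beginning with Ndufaf left out), Uqcr, Cox4 to Cox8 or Atp5, together with Sdha, Sdhb, Sdhc, Sdhd and Cyc1. Of 54232 genes in the table, 87 matched, and 83 of these reached a mean rlog value of log2(10) across the 10 mice. These 83 were 38 genes of complex I, 4 of complex II, 9 of complex III, 15 of complex IV and 17 of complex V. The 4 genes below the limit were Cox6b2 (mean 2.95), Cox7b2 (mean -1.09), Cox8c and a further identifier of Atp5o, the last pair listed at 0 in every mouse. Genes of other biotypes were no members, among them 12 processed pseudogenes and Ndufb1-ps, which the annotation gives as a long non-coding RNA (mean 13.05, difference 0.079).

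The study asked how the muscle transcriptome changes when desmin, the main intermediate filament protein of muscle, is missing. RNA was sequenced from 5 homozygous desmin knock-out mice (genotype Des -/-) and 5 wild-type mice (Des wt/wt, littermates by the description of the study), all of strain B6J.129Sv-Destm1Cba/Cscl and 3 months old. The muscle is labelled gastrocnemius in the samples and named elsewhere together with the neighbouring plantaris. The methods speak of RNA pooled from 5 muscles per genotype, whereas the table holds a column per mouse, so each column was taken as 1 mouse.

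Values are regularized log (rlog) expression values on a log2 scale, and every difference is knock-out minus wild-type on that scale. Rlog values are drawn towards the mean of each gene, so differences are smaller than log2 fold changes of counts, and sequencing depth is unknown. P-values describe the spread between these mice, and an adjusted p is that of limma after Benjamini-Hochberg adjustment over 14289 tested genes. In whole muscle, fewer cells of a type and less RNA per cell cannot be told apart.

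Des itself had a mean rlog value of 11.84 in knock-out mice (SD 0.057, n = 5). In wild-type mice the mean was 16.58 (SD 0.67, n = 5), the genotypes did not overlap, and wild-type mouse 3 was at 17.74. Wild-type mouse 3 stood apart from the other mice. Its values had a mean correlation of 0.982 with the other wild-type mice, and the sum of its values, taken back from the log2 scale, was 1.48 times the median of the mice. The results are therefore given with and without this mouse. All 8 markers of skeletal muscle passed the expression limit, none of them passed the test by limma (4 had an unadjusted p under 0.05; without wild-type mouse 3, 2 were higher and 1 lower). Of 8 heart muscle markers 4 were under the expression limit, among them Myl7 and Nppa with means of -2.06 and -0.38. Of the 4 tested, 3 were called higher in knock-out mice (median 0.92), beside 7.7% of all tested genes. Without wild-type mouse 3, 9.34% of all tested genes were called higher and 8.11% lower.

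The respiratory chain sits in the inner mitochondrial membrane. Complex I takes electrons from NADH and complex II from succinate, both pass them to ubiquinone, complex III hands them to cytochrome c, and complex IV transfers them to oxygen. Complexes I, III and IV pump protons, and complex V uses the gradient to make ATP. Most subunits are encoded in the nucleus, a small set in mitochondrial DNA, and oxidative muscle fibers hold more of all of them than glycolytic ones.

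Among the 83 subunit genes, Ndufb3 of complex I was the only one that passed the test (adjusted p under 0.05, limma), and it was higher in desmin knock-out muscle. Of all tested genes, 7.7% were higher and 5.99% lower, which makes 13.7% in either direction. The count of lower subunit genes was 0, and of the 4 members with an unadjusted p under 0.05 (3948 among all tested genes), Ndufb3 and Atp5l were higher and Ndufa4l2 and Cox8b lower. The values of the genotypes did not overlap for 2 members, Ndufb3 and Atp5l, compared with 14.4% of all tested genes. Mean levels were lower in knock-out mice for 56 members and higher for 27, and the differences ran from -0.45 (Ndufa4l2) to 0.38 (Atp5l).

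The median difference of the members was -0.088, beside -0.0029 over all tested genes. By complex, the medians were -0.11 for complex I, -0.093 for complex II, -0.045 for complex III, 0.0030 for complex IV and -0.041 for complex V. When wild-type mouse 3 was left out, the median of all members was 0.012, with 40 genes lower and 43 higher, and the complexes lay between -0.021 (complex I) and 0.087 (complex IV). The sign of the median thus turned when 1 mouse was left out. The sign also turned with quantile normalization (0.032) and with sample weights (0.075), but not with median centring (-0.13).

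The precision of these differences was similar to that of other genes. The median standard error of a member was 0.14, against 0.13 over all tested genes. The 95% intervals of all 83 members lay between -1 and 1, and those of 72 lay within 0.58 on either side of 0. Without wild-type mouse 3 the median standard error was 0.096 (all genes 0.11) and 81 intervals lay within 0.58. Across the members the intervals reached from -0.88 (Ndufa4l2) to 0.65 (Atp5l).

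**Figure D1:**
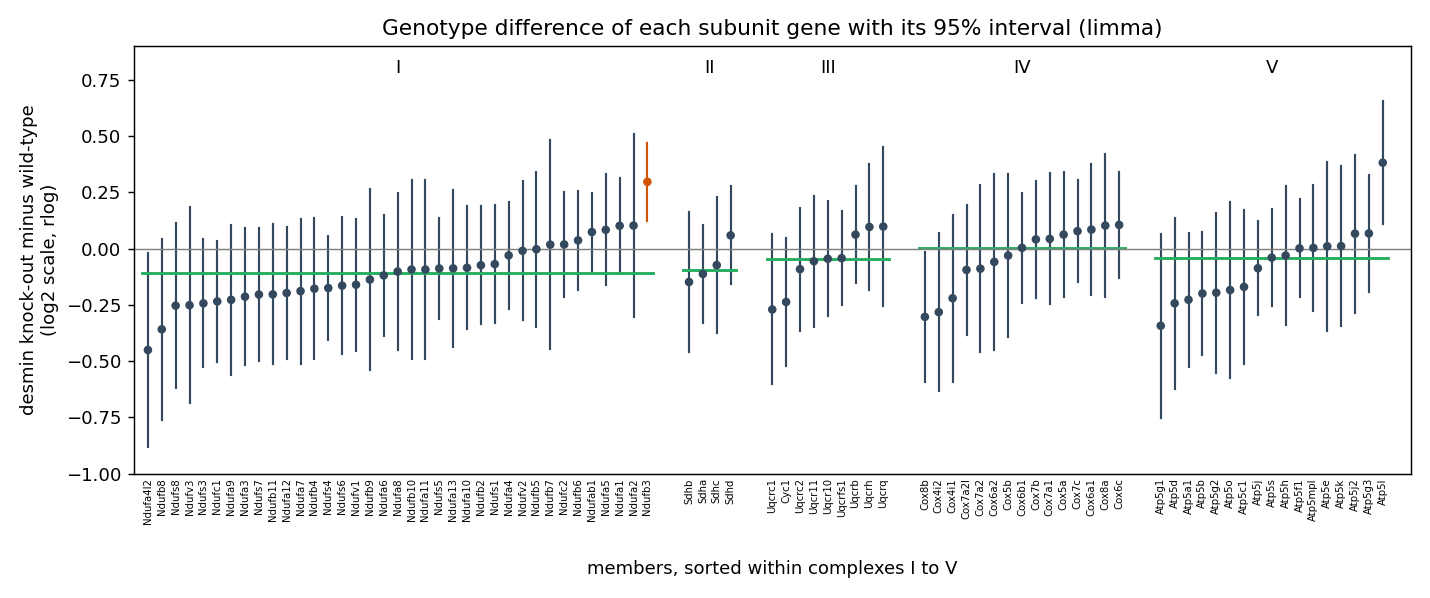
Knock-out minus wild-type difference (rlog, log2 scale) of the subunit genes (1 of the 83 is not shown), sorted within complexes I to V, as points with 95% intervals from limma (5 mice per genotype). Green lines mark the median of each complex, and the orange point is Ndufb3, the only member with an adjusted p under 0.05. Besides Ndufb3, the intervals of Atp5l, Ndufa4l2 and Cox8b lie to one side of 0.

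The members varied together from mouse to mouse. Averaged over the 83 genes, the deviation from the gene mean was -0.16, -0.0024, -0.075, 0.0036 and 0.032 in knock-out mice 1 to 5. In wild-type mice 1 to 5 it was -0.13, -0.085, 0.43, 0.14 and -0.16. Wild-type mouse 3 was far above all others, mouse 4 was next, and wild-type mice 1, 2 and 5 lay within the range of the knock-out mice. Wild-type mouse 3 had the highest value of all 10 mice for 61 of 83 members, compared with 4102 of 14289 tested genes. Its excess over the mean of the other wild-type mice had a median of 0.54 and ranged from -0.54 (Atp5l) to 1.03 (Ndufb8). The median excess was 0.79 in fast fiber markers, 0.91 in slow fiber markers and 1.28 in erythroid markers. It was -0.45 in fibroblast markers and 7.8e-05 over all tested genes.

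This excess was found in each complex. The mean deviation of wild-type mouse 3 was 0.49 in complex I, 0.28 in complex II, 0.33 in complex III, 0.39 in complex IV and 0.43 in complex V. Complex II departed from the others in wild-type mouse 4, where it was -0.095 while the other 4 complexes lay between 0.078 and 0.18. In wild-type mouse 2 complex II was at 0.12 and the other 4 between -0.13 and -0.058. Knock-out mice showed a narrower span, from -0.18 (complex I, mouse 1) to 0.087 (complex III, mouse 5).

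**Figure D2:**
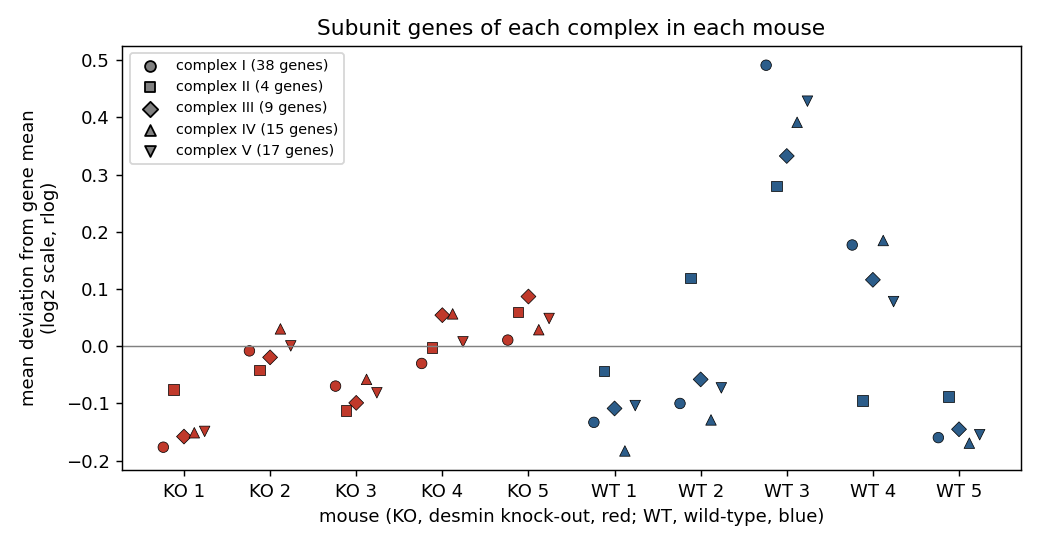
Mean deviation from the gene mean (rlog, log2 scale) of the subunit genes of each complex, 1 symbol per complex, in each knock-out (red) and wild-type (blue) mouse. All 5 complexes were highest in wild-type mouse 3, between 0.28 and 0.49.

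The spread within a genotype was larger in wild-type mice for 75 of 83 members (90.4%, against 82.9% of all tested genes). The median SD was 0.12 in knock-out and 0.30 in wild-type mice, and 0.17 in wild-type mice without mouse 3. The corresponding medians over all tested genes were 0.13, 0.25 and 0.18. After subtraction of the genotype means, pairs of members had a median Pearson correlation of 0.712 over the 10 mice, and 0.547 over the 9 mice without wild-type mouse 3, while pairs of all tested genes had medians of -0.001 and -0.0023. Other lists also varied together, with medians over the 10 mice of 0.831 for fast fiber markers and 0.8735 for erythroid markers. Other mitochondrial genes had 0.562, skeletal muscle markers 0.327 and complex I assembly factors 0.0162. The points of these correlations are the same mice, so this is a description of shared variation. By complex, the median was 0.764 in complex I, 0.774 in complex IV, 0.644 in complex V, 0.606 in complex III and -0.0935 in complex II, whose 4 genes gave 0.265 without wild-type mouse 3.

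The differences were also set against properties of the transcripts. Length and GC content were those of the longest annotated transcript of each gene, coding or not. For Atp5l this transcript has 6310 bases, against 544 for its longest coding transcript. By this measure members were short, with a median length of 1005 bases against 3240 over all tested genes. Their median GC content was 50.3% against 49.7%. Across the 83 members, which were measured in the same mice, the Spearman correlation of the difference with GC content was -0.384, and -0.178 without wild-type mouse 3. The excess of wild-type mouse 3 itself had a correlation of 0.433 with GC content. With the trends of each mouse on GC content and length removed, the median difference was -0.068 and 57 members were lower. The part of GC content in the differences was not tested beyond these values.

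**Figure D3:**
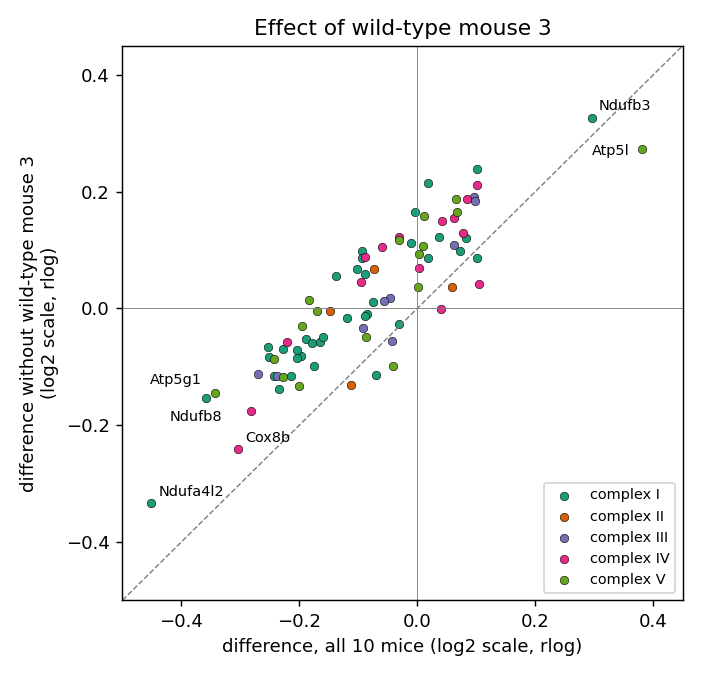
Difference of each member without wild-type mouse 3 (vertical) against the difference over all 10 mice (horizontal), both knock-out minus wild-type in rlog units (log2 scale), coloured by complex (1 member is not shown), with equality as the dashed line. Most members lie above the line, and Atp5l lies below it.

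In complex I, the largest group, 30 of 38 members had a lower mean, beside 3 of 4 in complex II. Without wild-type mouse 3, 22 members of complex I were lower and 16 higher, and with sample weights 13 were lower and 25 higher. The 7 core subunits carry the flavin and the iron-sulfur clusters on the path from NADH to ubiquinone. All 7 had a lower mean in knock-out mice, with differences from -0.25 (Ndufs8) to -0.010 (Ndufv2), a median of -0.19 and no call by limma (0 with an unadjusted p under 0.05). Without wild-type mouse 3 the median was -0.085 and 6 of 7 were lower. Their mean deviation lay between -0.14 and -0.010 in the knock-out mice and between -0.13 and 0.45 in the wild-type mice, so that the groups overlapped.

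The 31 other members grouped with complex I by name are accessory subunits, apart from Ndufa4 and its paralogue Ndufa4l2. Accessory subunits surround the core and are needed for its assembly and stability. The 31 genes had a median difference of -0.093, with 23 lower and 8 higher. Leaving out wild-type mouse 3 gave a median of -0.0093, with 16 lower and 15 higher. Next to Ndufa4l2, the lowest was Ndufb8 with -0.36 ± 0.19 (SE, adjusted p = 0.235), which was -0.15 without wild-type mouse 3. Ndufb3 was at the other end.

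Ndufb3, an accessory subunit of the membrane arm, had rlog values of 12.65, 12.77, 12.78, 12.78 and 12.85 in knock-out mice 1 to 5. In wild-type mice 1 to 5 the values were 12.44, 12.41, 12.59, 12.45 and 12.46. Every knock-out mouse was above every wild-type mouse, and the narrowest gap was that between knock-out mouse 1 and wild-type mouse 3. The difference was 0.30 ± 0.08 (SE, 95% interval 0.12 to 0.47, adjusted p = 0.0257), and 0.33 without wild-type mouse 3 (adjusted p = 0.00264).

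The call for Ndufb3 was lost with median centring (0.25, adjusted p = 0.0878) and with the replicate block (0.30, adjusted p = 0.089). It was also lost without knock-out mouse 2, 3, 4 or 5 or wild-type mouse 1 or 2, with adjusted p-values between 0.0534 and 0.0817 and differences between 0.27 and 0.30. Over all alternatives the difference stayed between 0.25 and 0.38, and the adjusted p ran from 0.000144 to 0.089. A share of 6.72% of its 50-base words also occurs in another gene, the processed pseudogene Gm45930.

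Ndufb3 (ENSMUSG00000026032) lies on the same chromosome as Des, at chr1:58586384-58595964 of GRCm38 on the plus strand, 16.8 Mb from Des. The part of this position in the difference was not tested. Among other members on chromosome 1, Ndufs1 at 12.2 Mb had a difference of -0.069 and Ndufa10 at 17.1 Mb one of -0.086. Cox5b (38.7 Mb) and Sdhc (95.8 Mb) had differences of -0.031 and -0.074, and none of these 4 genes passed the test.

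The promoter of Ndufb3 is shown because this gene alone passed the test, and that of Atp5l because it was the only other member without overlap. Each runs from 250 bases before to 50 bases after the start of the gene in RefSeq (GRCm38.p6), at chr1:58586147-58586446 on the plus strand and chr9:44920693-44920992 on the minus strand. Capitals mark matches, on either strand, to 7 motifs of factors known to act on respiratory genes or on many promoters.
Ndufb3: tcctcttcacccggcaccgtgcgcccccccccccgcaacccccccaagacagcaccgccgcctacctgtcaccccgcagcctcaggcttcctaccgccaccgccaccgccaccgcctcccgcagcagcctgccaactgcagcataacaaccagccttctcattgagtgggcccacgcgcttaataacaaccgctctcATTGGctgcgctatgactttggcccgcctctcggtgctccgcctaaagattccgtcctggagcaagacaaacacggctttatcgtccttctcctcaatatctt
Atp5l: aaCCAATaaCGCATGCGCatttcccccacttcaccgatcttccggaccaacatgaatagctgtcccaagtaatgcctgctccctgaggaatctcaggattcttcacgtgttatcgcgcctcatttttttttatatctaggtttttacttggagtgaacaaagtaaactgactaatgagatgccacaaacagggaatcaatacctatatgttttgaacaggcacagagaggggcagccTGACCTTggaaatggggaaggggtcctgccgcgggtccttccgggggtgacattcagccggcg
The sequence of Ndufb3 holds a CCAAT box (CCAAT) on the minus strand at bases 198 to 202. That of Atp5l holds a CCAAT box at bases 3 to 7, an NRF1 motif (GCGCATGCG) at bases 10 to 18 and an ERR motif (AAGGTCA) at bases 238 to 244, the last pair on the minus strand.

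A promoter was found for 67 of the 83 members. The NRF1 motif occurred in 11.9% of them, against 1.81% of all 27025 promoters of the same length and 3.59% of the 10586 promoters of tested genes. For its relaxed form GCGCANGCG, which includes every exact match, the shares were 28.4%, 6.47% and 13.5%. The ERR motif was present in 11.9% of member promoters (4.66% and 3.19%) and the YY1 motif AAGATGGC in 13.4% (2.88% and 4.61%). Shares were nearer to each other for the ETS motif CCGGAAGT of GABP (7.46%, 4.0% and 8.09%) and the CCAAT box (41.8%, 37.9% and 38.3%), and the Sp1 motif GGGCGG occurred in 40.3% of member promoters, 35.9% of all and 63.0% of those of tested genes. The 9 members with a YY1 motif had a median difference of -0.20 (-0.085 without wild-type mouse 3), compared with -0.065 (0.027) in the 58 without it, and the 8 members with an ERR motif had 0.010 (0.072) against -0.089 (-0.00055). The 8 members with an NRF1 motif had -0.075 (0.083) against -0.088 (-0.00055), and the 5 with an ETS motif -0.031 (0.12) against -0.088 (0.0054). For the relaxed NRF1 form the values were -0.093 (0.036) against -0.080 (-0.0025). Sp1 gave -0.088 (0.036) against -0.065 (0.012), and the CCAAT box -0.043 (0.014) against -0.089 (0.012). These are descriptions without a test, and a match is not a binding site.

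Ndufa4l2, a paralogue of Ndufa4 known to be induced at low oxygen and present in cells of vessel walls, was the member with the lowest difference. Its rlog values were 6.38, 6.35, 5.98, 6.73 and 6.68 in knock-out mice and 6.65, 6.26, 7.34, 7.08 and 7.05 in wild-type mice. The groups overlapped, with wild-type mice 1 and 2 within the range of the knock-out mice. The difference was -0.45 ± 0.20 (SE, adjusted p = 0.162), -0.33 without wild-type mouse 3 and -0.61 without wild-type mouse 2, where it passed the test (adjusted p = 0.0457). With sample weights it was -0.0010.

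All 8 markers of endothelium had a lower mean in the same knock-out mice, while with sample weights 6 were lower and 2 higher. Of all tested genes, 5.99% were called lower and 7.7% higher (8.11% and 9.34% without wild-type mouse 3). Among the 8 markers, 4 fell by limma (Cdh5, Pecam1, Tie1 and Tek, and 3 genes without wild-type mouse 3) and 0 rose, with a median difference of -0.38. Their summed level, taken back from the log2 scale, was 4198 to 5476 in knock-out and 5364 to 6790 in wild-type mice, and none of the 8 was at 0. The part of vessel cells in the values of Ndufa4l2 was not tested, and no list held markers of pericytes or smooth muscle.

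Complex II oxidizes succinate and is the only complex with no subunit from mitochondrial DNA. Its flavoprotein Sdha had values of 14.81, 14.80, 14.82, 14.74 and 14.88 in knock-out mice and 14.98, 15.16, 14.85, 14.78 and 14.84 in wild-type mice. The groups overlapped, with wild-type mice 1 and 2 above all knock-out mice. The difference of Sdha was -0.11 ± 0.10 (SE, adjusted p = 0.501), and with sample weights -0.22 (adjusted p = 0.0362). Unlike most members, Sdha was not highest in wild-type mouse 3.

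The iron-sulfur subunit Sdhb differed by -0.15 ± 0.14 (SE), and by -0.0045 without wild-type mouse 3. The membrane anchors Sdhc and Sdhd differed by -0.074 ± 0.14 (SE) and 0.058 ± 0.10 (SE). Sdhd ranged from 13.72 to 14.02 in knock-out and from 13.59 to 13.92 in wild-type mice, and its value in wild-type mouse 3 (13.68) was below the mean of its group. The adjusted p-values of these 3 genes lay between 0.537 and 0.77.

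Of the 9 members of complex III, 6 had a lower and 3 a higher mean, and the smallest adjusted p was 0.267. The core protein Uqcrc1 was the lowest, at -0.27 ± 0.15 (SE). Its values were 14.34, 14.44, 14.24, 14.38 and 14.47 in knock-out mice and 14.40, 14.56, 15.28, 14.60 and 14.39 in wild-type mice. Apart from wild-type mouse 3, these values overlapped, and without that mouse the difference was -0.11.

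Cyc1, the cytochrome c1 subunit that hands electrons to cytochrome c, gave a like picture, with -0.24 ± 0.13 (SE, adjusted p = 0.267) over all mice and -0.12 without wild-type mouse 3. The Rieske iron-sulfur protein Uqcrfs1 differed by -0.043 ± 0.10 (SE). The highest of the complex was Uqcrq, a small ubiquinone-binding subunit, at 0.098 ± 0.16 (SE, adjusted p = 0.734). With sample weights Uqcrq was higher by 0.37 (adjusted p = 0.00684).

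In complex IV, 7 members had a lower and 8 a higher mean. The differences ran from -0.30 (Cox8b) to 0.11 (Cox6c, adjusted p = 0.569). Without wild-type mouse 3, 11 of the 15 were higher. Cox7a2l differed by -0.095 ± 0.13 (SE). Ndufa4, grouped with complex I by its name, is now known as a subunit of complex IV, and counting it there gave medians of -0.12 for complex I and -0.014 for complex IV.

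Several subunits of complex IV exist as a form present in most tissues and a form restricted to muscle or other tissues. Of 6 such pairs, including Ndufa4 with Ndufa4l2, 5 had both genes over the expression limit. The rlog difference between the 2 genes of a pair, which does not depend on the scaling of a mouse, was taken within each mouse and compared between genotypes by an exact two-sided permutation test. With 5 against 5 mice, 252 arrangements exist and the smallest p is 0.00794. Adjustment was over the 5 pairs.

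The heart and muscle form Cox8b and the ubiquitous form Cox8a had differences of opposite sign. Cox8b had values of 13.47, 13.91, 13.85, 13.85 and 13.84 in knock-out and 13.87, 13.89, 14.34, 14.40 and 13.93 in wild-type mice, and Cox8a 10.13, 10.07, 9.90, 10.27 and 9.93 against 9.72, 9.86, 10.40, 10.22 and 9.60. Neither gene passed the test by itself, with differences of -0.30 ± 0.13 (SE, adjusted p = 0.161) and 0.10 ± 0.15 (SE, adjusted p = 0.69). The difference of Cox8b was -0.22 without knock-out mouse 1 (adjusted p = 0.336), its lowest value, and -0.22 without wild-type mouse 4 (adjusted p = 0.285).

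Cox8b minus Cox8a was 3.33, 3.84, 3.94, 3.58 and 3.91 in knock-out mice and 4.15, 4.03, 3.94, 4.18 and 4.33 in wild-type mice. Knock-out mouse 3 lay just above wild-type mouse 3, and the other 4 knock-out mice were below every wild-type mouse. The difference between genotypes was -0.41 ± 0.13 (SE, n = 5 per genotype, exact permutation p = 0.0159, adjusted p = 0.0794). It did not pass the adjustment over all mice, and did so without knock-out mouse 3 (-0.46, adjusted exact p = 0.0397) and with the trends on GC content and length removed (-0.42, adjusted exact p = 0.0397). Without wild-type mouse 3 it was -0.45.

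The promoters of this pair are shown because the 2 genes form the pair with the smallest p, at chr19:7217567-7217866 and chr7:140900397-140900696 (RefSeq, GRCm38.p6, both on the minus strand). Capitals mark the same motifs as above.
Cox8a: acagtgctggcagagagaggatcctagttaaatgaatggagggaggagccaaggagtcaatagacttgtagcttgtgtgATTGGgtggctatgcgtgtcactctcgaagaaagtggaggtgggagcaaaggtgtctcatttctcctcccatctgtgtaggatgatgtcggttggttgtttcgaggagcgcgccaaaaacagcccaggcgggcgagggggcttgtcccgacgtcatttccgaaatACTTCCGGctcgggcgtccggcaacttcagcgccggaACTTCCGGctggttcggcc
Cox8b: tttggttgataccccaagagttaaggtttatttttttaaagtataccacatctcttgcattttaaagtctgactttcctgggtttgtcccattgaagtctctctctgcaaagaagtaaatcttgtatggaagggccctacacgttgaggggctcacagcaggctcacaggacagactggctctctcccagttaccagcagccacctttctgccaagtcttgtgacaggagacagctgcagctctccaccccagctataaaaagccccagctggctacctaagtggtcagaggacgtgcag
The Cox8a sequence has a CCAAT box at bases 80 to 84 and ETS motifs at bases 245 to 252 and 282 to 289, all on the minus strand. The Cox8b sequence holds none of the 7 motifs.

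The other 4 pairs did not pass. Ndufa4l2 minus Ndufa4 differed between genotypes by -0.42 ± 0.21 (SE, exact permutation p = 0.103, adjusted p = 0.228). For Cox6a2 minus Cox6a1, the muscle form minus the ubiquitous form, the difference was -0.14 ± 0.09 (SE, exact permutation p = 0.183). For Cox7a1 minus Cox7a2, again with the muscle form named first, it was 0.13 ± 0.09 (SE, exact permutation p = 0.167). The adjusted p of both was 0.228, and their signs were opposite. Cox4i2, the form known from lung and low oxygen, minus Cox4i1 differed by -0.062 ± 0.18 (SE, exact permutation p = 0.746).

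The single genes of these pairs had differences of -0.059 (Cox6a2), 0.084 (Cox6a1), 0.043 (Cox7a1), -0.089 (Cox7a2), -0.28 (Cox4i2), -0.22 (Cox4i1) and -0.031 (Ndufa4), with no call. Cox6b1, whose partner Cox6b2 was under the limit, differed by 0.0030 ± 0.11 (SE). Without wild-type mouse 3 the differences of Cox6a2 and Cox7a2 were 0.10 and 0.087.

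**Figure D4:**
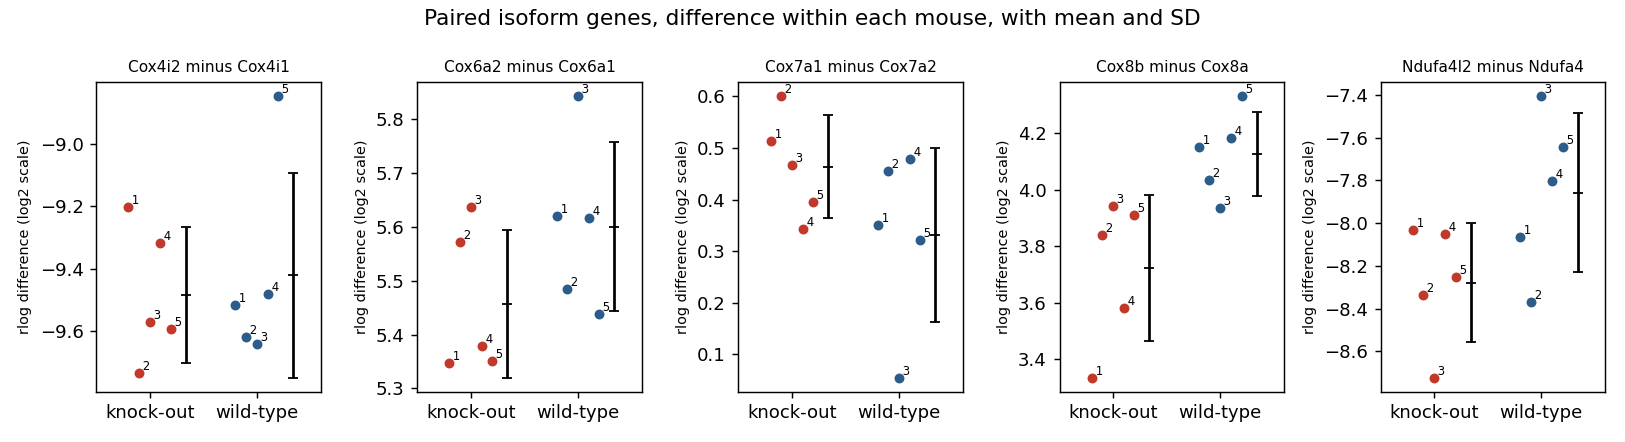
Difference between the rlog values (log2 scale) of the 2 genes of each isoform pair in each knock-out (red) and wild-type (blue) mouse, numbered by mouse, with the mean and SD (n = 5) beside the points. For Cox8b minus Cox8a the means were 3.72 in knock-out and 4.13 in wild-type mice, and the groups overlapped only through knock-out mouse 3 and wild-type mouse 3.

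Complex V comprises the F1 head that makes ATP, the ring of c subunits that turns with the proton flow, a stalk and small membrane subunits. The 5 genes of the F1 head had a median difference of -0.20, with 4 lower, and -0.087 without wild-type mouse 3. Atp5a1 and Atp5b, the alpha and beta subunits of the catalytic head, differed by -0.23 ± 0.14 (SE, adjusted p = 0.311) and -0.20 ± 0.13 (SE, adjusted p = 0.332). Leaving out wild-type mouse 3 gave -0.12 and -0.13.

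The 3 genes for the c subunit encode the same mature protein with different import sequences. Atp5g1, the lowest member of complex V, had values of 13.59, 13.80, 13.70, 13.88 and 13.98 in knock-out and 13.82, 14.02, 14.93, 14.17 and 13.73 in wild-type mice. Wild-type mouse 3 lay far above the other mice, which overlapped. The difference was -0.34 ± 0.19 (SE, adjusted p = 0.263), and -0.15 without that mouse. Atp5g2 and Atp5g3 differed by -0.20 and 0.067, so the c subunit genes did not share a sign. The 4 stalk genes had a median of -0.059, and 0.025 without wild-type mouse 3.

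Atp5l, the small membrane subunit g found where ATP synthase dimers meet, was the member with the highest difference. Its values were 8.58, 8.54, 8.71, 8.54 and 8.68 in knock-out mice and 8.53, 8.22, 7.80, 8.21 and 8.40 in wild-type mice. All knock-out mice were above all wild-type mice, although wild-type mouse 1 was almost level with the lowest of them. The difference was 0.38 ± 0.13 (SE, 95% interval 0.11 to 0.65, adjusted p = 0.0649), and 0.27 without wild-type mouse 3 (adjusted p = 0.0571). Wild-type mouse 3 had the lowest value of Atp5l, in contrast to its high values for most members.

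Atp5l (ENSMUSG00000038717, chr9:44912557-44920742 of GRCm38) was the only member with more than 50% of its 50-base words in other genes (68.5%, most in the processed pseudogene Gm10221), so its value is uncertain. Of the 83 members, 47 shared no such word and 18 shared more than 10%, among them Uqcrb (43.2%) and Ndufb4 (37.0%). The call of Atp5l was gained without wild-type mouse 1 (adjusted p = 0.0304) and with sample weights (adjusted p = 0.0293).

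**Figure D5:**
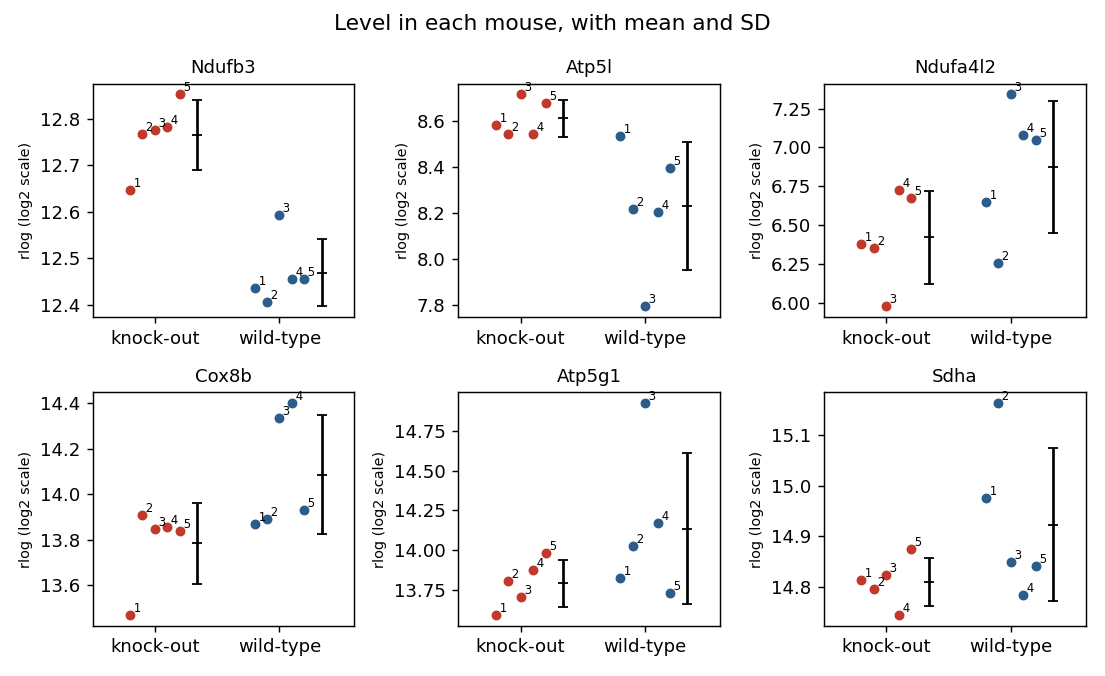
Rlog values (log2 scale) of 6 members in each knock-out (red) and wild-type (blue) mouse, numbered by mouse, with the mean and SD (n = 5) beside the points; the axes do not start at 0. The genotypes do not overlap for Ndufb3 and Atp5l and overlap for Ndufa4l2, Cox8b, Atp5g1 and Sdha.

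Leaving out wild-type mouse 3 did not move the count of calls, which was 1 higher and 0 lower by limma with and without it, although 9.34% of all tested genes were then higher and 8.11% lower. With sample weights, which gave wild-type mice 3 and 4 the lowest weights (0.10 and 0.275) and knock-out mice 4 and 5 the highest (4.21 and 3.22), 15 members were higher and 2 lower, against 14.6% and 14.9% of all tested genes. Sdha was among the lower members. The 15 higher members comprised 4 genes of complex I, 2 of complex III, 4 of complex IV (Cox6a1, Cox7a1, Cox7c and Cox8a) and 5 of complex V.

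No difference was detected among the subunits encoded in mitochondrial DNA. Of 13 such genes 8 were tested, and 0 passed by limma (0 with an unadjusted p under 0.05), with a median of -0.12 and 0.0081 without wild-type mouse 3. The differences ran from -0.26 ± 0.19 (mt-Nd5, SE) to 0.34 ± 0.17 (mt-Nd6, SE, adjusted p = 0.216), the latter being encoded on the other strand than the rest, and mt-Nd4 was at -0.18. The genes mt-Co2, mt-Co3, mt-Atp6, mt-Atp8 and mt-Nd4l were near 0 in the table, with means from -0.72 to 1.78, and were not tested.

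Assembly factors build the complexes and are not part of them. The calls below stand beside 5.99% of all tested genes called lower and 7.7% called higher. Of 15 factors for complex I, Acad9 fell (-0.32 ± 0.09, SE, adjusted p = 0.0384), Ndufaf6 and Ndufaf5 were at -0.33 and -0.25 without a call, and the median was -0.083. Of 6 for complex III, Uqcc1 fell (-0.33 ± 0.09, SE, adjusted p = 0.0265), Bcs1l and Ttc19 were at -0.28 and 0.13 without a call, and the median was 0.048. Of 19 tested for complex IV, Taco1, an activator of the translation of mitochondrial Cox1, fell (-0.39 ± 0.10, SE, adjusted p = 0.0212). Coa7 and Cox19 were at -0.26 and 0.25 without a call, and the median of this list was 0.0032. The 4 factors for complex II and 3 for complex V had no call, the smallest adjusted p being 0.0833 (Sdhaf4, 0.31 ± 0.11, SE) and 0.239 (Atpaf1, -0.17 ± 0.09, SE). Sdhaf1 and Sdhaf2 were at 0.060 and -0.021, and Atpaf2 and Tmem70 at -0.28 and -0.092.

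Among 16 genes of electron carriers and coenzyme Q synthesis, Coq9, a lipid-binding protein of coenzyme Q synthesis, fell (-0.35 ± 0.10, SE, adjusted p = 0.0358). Coq8a was at 0.42 ± 0.14 (SE, adjusted p = 0.0757), Coq5 at -0.23, and the median was -0.053. Of 16 other mitochondrial genes, the import channel gene Timm23 fell (-0.50 ± 0.15, SE, adjusted p = 0.0448) and the median was -0.11, or -0.038 without wild-type mouse 3. Vdac3 and Phb were at -0.26 and -0.30 without a call. In each of these lists, assembly factors included, 0 genes rose and at most 1 fell, beside 7.7% and 5.99% of all tested genes. Without wild-type mouse 3 the shares of all tested genes were 9.34% higher and 8.11% lower. With wild-type mouse 3 left out, calls numbered 1 higher among the complex II factors, 1 lower each for complexes I, III and V, 1 higher and 2 lower for complex IV, 2 higher and 1 lower among the carriers, and 2 lower among the other mitochondrial genes.

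Of 14 regulators of respiratory genes, 1 rose and 1 fell, near the shares of all tested genes (7.7% higher and 5.99% lower). Esrrg, a nuclear receptor of oxidative metabolism, rose by 1.09 ± 0.20 (SE, adjusted p = 0.00239). Ppard, a nuclear receptor of fatty acid oxidation, fell by 0.68 ± 0.14 (SE, adjusted p = 0.0055). Both held without wild-type mouse 3, at 1.05 and -0.55. The other 12 of 14 regulators did not pass. Among them, Ppara differed by -0.55 ± 0.24 (SE, adjusted p = 0.157), the coactivator Ppargc1a differed by -0.13 ± 0.30 (SE), Nrf1 by 0.0092 ± 0.11 (SE), Esrra by -0.11 ± 0.11 (SE) and the mitochondrial transcription factor Tfam by -0.044 ± 0.08 (SE).

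Some markers of fiber types were called. Their calls stand beside 7.7% of all tested genes called higher and 5.99% lower (9.34% and 8.11% without wild-type mouse 3). Of 11 slow fiber markers 3 rose (Tnnt1, Casq2 and Tnni1, by 1.70, 1.01 and 0.91) and Myl3 fell (-0.998), with 5 higher and 1 lower without wild-type mouse 3, and their summed level was 37298 to 53270 in knock-out and 25568 to 53739 in wild-type mice. Of 12 fast fiber markers Myh2, the myosin of the oxidative fast fibers, rose (0.77), and Mybpc2, Myh4 and Actn3 fell (-1.05, -0.71 and -0.97), with summed levels of 4.90e+06 to 5.64e+06 against 5.82e+06 to 1.075e+07. Wild-type mouse 3 had the highest sum in both lists, and no marker of either list was at 0. Their part in the values of the subunit genes was not tested.

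The other lists of markers gave the following calls, beside 7.7% of all tested genes called higher and 5.99% lower (9.34% and 8.11% without wild-type mouse 3). Of 8 fibroblast markers 3 rose (Lum, Col3a1 and Col1a1; 2 without wild-type mouse 3), and of 5 tested erythroid markers 2 fell (Alas2 and Hbb-bs; 3 without wild-type mouse 3), with summed levels of 2879 to 4354 in knock-out and 4100 to 10610 in wild-type mice, the highest again in wild-type mouse 3. Of 4 tested heart muscle markers 3 rose (Tnnt2, Myl4 and Tnni3), while Nppa, Nppb, Myl7 and Ryr2 were under the expression limit (means -0.38, 0.42, -2.06 and 2.36). Which cells or fibers these transcripts came from was not tested. Markers of adipocytes (7 tested), macrophages (8) and Schwann cells (8) had no call by limma, with 0, 0 and 1 at an unadjusted p under 0.05, and Ucp1 was listed at 0 in all mice.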

How the data were processed

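RNA was extracted from gastrocnemius muscle of 5 desmin knock-out and 5 wild-type mice, and stranded mRNA libraries were sequenced. The submitters' processing notes name cutadapt 2.5, STAR 2.5.4a, Subread 1.6.1 with featureCounts, and DESeq2, on GRCm38. The authors deposited rlog values, which are log2 values that DESeq2 normalized for library size and shrank to each gene's own mean. No counts were used here, so depth and counting error are unknown. Whether the replicates were pooled before sequencing is described differently in the methods and the table.

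The test was limma 3.58.1 in R 4.3.3 on the 14289 genes whose mean rlog reached log2(10) (lmFit and two-sided eBayes with trend, genotype as the only term, Benjamini-Hochberg adjustment over these genes). Isoform pairs were compared by exact permutation tests. Symbols and positions came from GENCODE M21 for 54165 of 54232 genes, promoters from RefSeq, and shared words of 50 bases from the GENCODE transcripts. The fit was tested on simulated data with planted changes. The simulated noise was independent between genes and had the same spread in both genotypes. It therefore did not cover the shared variation of the members or a mouse that stands apart.

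The members, the lists and the tests were chosen with earlier results of these data known. Named were Des, in each complex the members past the threshold and those with the highest and the lowest difference, the genes of the isoform pairs, the complex II subunits, Cyc1, Uqcrfs1, Atp5a1 and Atp5b, and from each list of other genes up to 3 with the lowest adjusted p. Further genes, among them Ndufb8, Cox7a2l, Ppargc1a, Nrf1, Esrra and Tfam, were named after their values were seen. The values of 1 member are not reported here by name.

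The alternatives were an expression limit of log2(50) or none, sample weights (arrayWeights), median centring or quantile normalization of the mice, subtraction of each mouse's trends with GC content and length (splines with 4 degrees of freedom), 1 prior variance for all genes, a replicate block, an adjusted p under 0.01, Ndufa4 counted with complex IV, and the omission of each mouse.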

Additional observations from a re-analysis of the deposited data

Results flagged for a closer look

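In 72 groups of 5 values examined (the named genes, the isoform pairs and the mean of each complex, in each genotype), 9 held 1 value well separated from its 4 companions. About 1 in 20 groups, here 3.6, would be picked out by chance if the groups were independent. They are not, because the same 10 mice recur and the members varied together, so 9 cannot be read against 3.6. Wild-type mouse 3 accounted for 6 of the 9 groups. It had the highest value of its group for Des (17.74), Ndufb3 (12.59), Uqcrc1 (15.28), Cox7a2 (14.18), Sdhc (14.13) and Cyc1 (14.65). Knock-out mouse 1 had the lowest value of its group for Cox8b (13.47) and Cox6b1 (14.18). In wild-type mouse 5, Cox4i2 minus Cox4i1 was -8.85, above the other wild-type mice. The cause was not tested for any of them.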

How the results depend on the processing

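The number of members called higher was 1 and became 0 with median centring, with the replicate block and at an adjusted p under 0.01, 15 with sample weights, and 0 to 1 when a mouse was left out. The number called lower was 0, became 2 with sample weights, and was 0 to 1 when a mouse was left out, Ndufa4l2 being called without wild-type mouse 2. Same-numbered mice of the genotypes correlated between -0.219 and 0.0673 in their deviations. Whether the numbers pair the mice cannot be told from these values, which cover all tested genes and include wild-type mouse 3. With the replicate block Ndufb3 had an adjusted p of 0.089 by limma. The median difference of complex III with sample weights was 0.13. With a mouse left out, the median of all members ran from -0.13 to 0.012, and those of complexes I to V from -0.19 to -0.021, -0.13 to 0.016, -0.089 to 0.024, -0.050 to 0.087 and -0.091 to 0.014. Cox8b minus Cox8a was -0.42 with GC content and length trends removed and -0.46 to -0.31 with a mouse left out, and Cox4i2 minus Cox4i1 was -0.13 to 0.082. Over the same omissions the sign turned for Cox6a1 (-0.0013 to 0.19), Cox7a2 (-0.15 to 0.087), Ndufa4 (-0.087 to 0.042), Cox6a2 (-0.15 to 0.10), Cox7a1 (-0.019 to 0.15), Cox6b1 (-0.050 to 0.069) and Sdhc (-0.13 to 0.068). Signs turned with quantile normalization for Sdhb (0.0055), Cox7a2 (0.038), Ndufa4 (0.052), Cox6a2 (0.032), Sdhc (0.032) and Uqcrfs1 (0.11), with sample weights for Cox7a2 (0.20), Ndufa4 (0.091), Cox6a2 (0.16) and Sdhc (0.10), and with median centring for Cox6b1 (-0.039). The cause was not tested.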
